A study of Homo sapiens with 20 samples.

Results

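Insulin-high cells of the SC-β cell stage are described here: cells of day 21 of pancreatic differentiation in which INS, the insulin gene, made up at least 2% of the cell's UMIs (unique molecular identifiers, each counting 1 captured RNA molecule). GCG (glucagon) and SST (somatostatin) had to stay under 0.5% each, and TPH1, which encodes the enzyme that starts serotonin synthesis, under 3 UMIs. The rule kept barcodes with 1500 to 5000 genes and under 15% mitochondrial UMIs. Its upper limit on genes fell unequally, leaving out 151 WT and 828 KO barcodes. In all, 11739 cells were kept. Of these, 1207 were insulin-high: 574 of 6128 WT cells and 633 of 5611 GPX2 KO cells. The members were thus chosen by INS, GCG, SST and TPH1 as measured in these same cells, and the values of these genes are given as a description.

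The labels give the line as HUES8, an established human pluripotent stem cell (hPSC) line, and the edited lines were made in iCas9-HUES8, its derivative with inducible Cas9. The cells were grown as spheroids through a pancreatic differentiation protocol. The WT library is the unedited genotype, and the library labelled GPX2 KO comes from a line in which deletion of the whole GPX2 gene on both alleles was sought by CRISPR/Cas9 with 3 sgRNAs. GPX2 in that library is given below. KO lines are clonal, and day 21 holds 1 single-cell library per genotype, so that genotype, clone and library cannot be told apart. No test between genotypes was possible, and all intervals below are exact 95% intervals for counting error only. The question the design poses is what insulin-producing cells look like when they form without this enzyme.

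β cells make proinsulin, cut it with the convertases PCSK1 and PCSK2, and pack it with zinc into granules that are released when glucose metabolism closes potassium channels. Their identity rests on transcription factors such as PDX1, NKX6-1, NKX2-2, NEUROD1, PAX6 and MAFA. SC-β cultures also hold glucagon-producing, somatostatin-producing and serotonin-producing (enterochromaffin-like) cells, and cells with more than 1 hormone. GPX2 is a glutathione peroxidase, a selenoenzyme of the gut epithelium that reduces hydrogen peroxide.

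The promoter that drives the gene by which these cells were chosen is shown because it carries the letters that several of the factors measured below recognise. The 250 bases before the INS start are taken from RefSeq (GRCh38.p14), chr11:2161210-2161459 on the minus strand, with TAAT (the core of homeodomain sites such as those of PDX1 and NKX6-1) and CANNTG (the E-box of factors such as NEUROD1) in capitals, searched on both strands.

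INS: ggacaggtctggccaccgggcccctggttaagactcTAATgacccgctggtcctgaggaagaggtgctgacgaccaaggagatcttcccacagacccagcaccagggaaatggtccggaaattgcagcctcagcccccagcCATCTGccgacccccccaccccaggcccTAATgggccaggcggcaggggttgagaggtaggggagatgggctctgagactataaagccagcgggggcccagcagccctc

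TAAT occurs 2 times and CANNTG 1 time in this window, without overlap. Of 35116 promoter windows of the same length, 47.4% hold TAAT, 27.6% hold it at least 2 times and 61.8% hold CANNTG, so that these matches are common letters and describe the window only.

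In the insulin-high cells, INS stood at a median of 7.65% of a cell's UMIs in WT (interquartile range 4.70 to 11.5%, highest 29.8%) and 10.7% in KO (6.77 to 14.7%, highest 31.9%). The lowest member held 2.01% in WT and 2.00% in KO, and the highest cell outside that met the other limits held 1.99% and 1.98%. Few cells lay near the limit: with the other limits met, 38 WT and 25 KO cells held 1.5 to 2%, and 28 and 20 cells held 2 to 2.5%. Members made up 9.37% of WT cells (8.65 to 10.1%) and 11.3% of KO cells (10.5 to 12.1%). The intervals do not overlap at this limit but do at 1% INS (10.0 to 11.6% in WT, 11.4 to 13.2% in KO), and the spread between cultures is unknown with 1 library each. All cells at 2% INS or more, whatever their other hormones, were 869 in WT (14.2%) and 1038 in KO (18.5%).

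**Figure D1:**
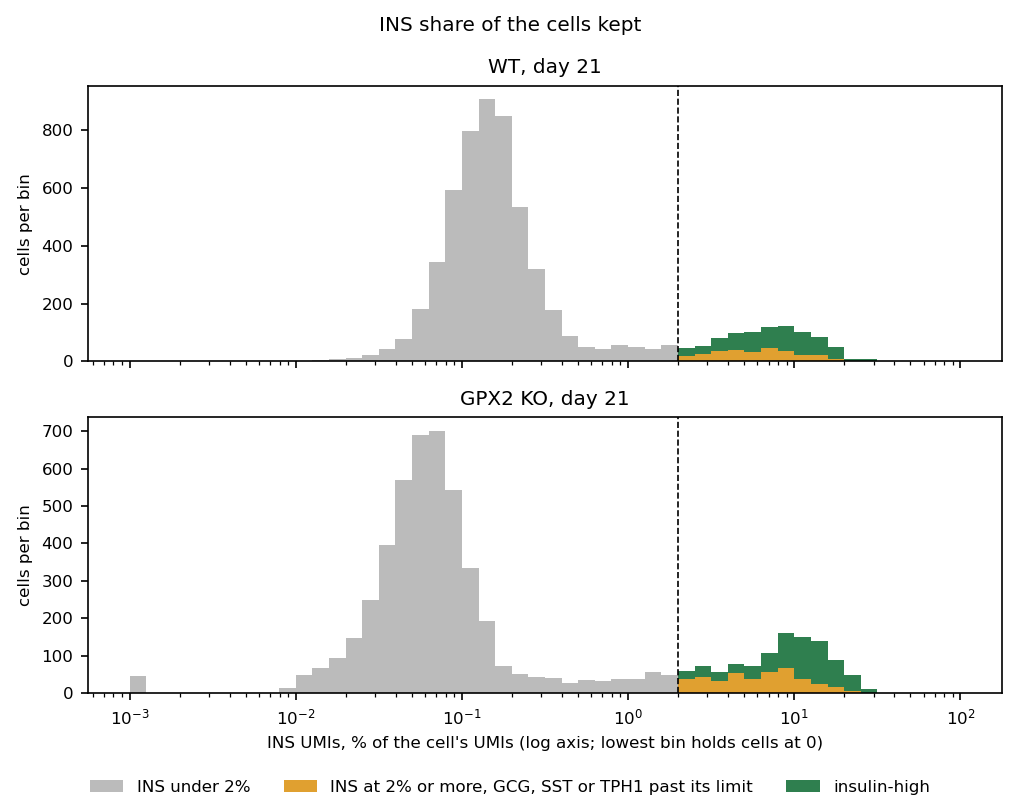
Histogram of the INS share of each kept cell's UMIs (x axis, percent, log scale) against cells per bin (y axis), WT above and GPX2 KO below, with the 2% limit dashed. Insulin-high cells (green) and cells with INS past 2% and another hormone past its limit (orange) form a separate hump, with medians of 7.65% and 10.7% for the green cells, and the grey hump lies at a lower INS share in KO than in WT.

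The limits on the other hormones left out 295 of 869 WT cells and 405 of 1038 KO cells. GCG left out 130 and 164 of them, TPH1 151 and 200, and SST 15 and 43. The TPH1 limit is a number of UMIs and not a share, so that it was stricter in the deeper KO cells. TPH1 counts and levels are therefore not like for like between the libraries. Cells past more than 1 of these limits were rare, 1 in WT and 2 in KO. GCG in the remaining members was near its level in cells without CHGA: 365 CPM (counts of UMIs scaled to the same total in each group) in WT members against 399 in WT cells without a UMI of CHGA, the gene of the endocrine granule protein chromogranin A, and 96.8 against 87.3 CPM in KO. SST stood at 53.6 CPM in WT and 31.2 in KO members, TPH1 at 36.3 and 15.1 CPM, and PPY (pancreatic polypeptide) at 3.61 and 8.17 CPM.

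The members were deeper than the rest. Their median was 7581.5 UMIs in WT and 10438 in KO, against 5499.5 and 7794.5 in the other cells, with 3405.5 and 3970 genes per cell. Mitochondrial UMIs had a median of 6.81% and 7.06% in members and 4.41% and 4.38% in other cells. The WT matrix was filtered to cells and the KO matrix was not, so free RNA could be profiled only in KO, from 1054298 barcodes with 1 to 100 UMIs. INS held 42893 CPM of that free RNA, and in cells without CHGA it held 1385 CPM in WT and 616 CPM in KO. A total of 7 barcodes were kept in both libraries, and 2 of them belonged to a member of either library. Scrublet called 16 WT and 17 KO members doublets (2.79% and 2.69%). The members stayed in, and the values without the called cells are given with the alternatives.

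GPX2 itself was near the detection limit at this stage. WT members held 12 UMIs (2.70 CPM) in 11 of 574 cells, and KO members held 0 of 6610152 UMIs. The floor for that 0, set at 3 counts, is 0.454 CPM, 5.96-fold under the WT level. That fold leaves out the counting error of the 12 WT UMIs. In the other cells GPX2 stood at 2.97 CPM in WT and 1.15 CPM in KO, where 44 of 4978 cells held 46 UMIs. The library labelled GPX2 KO, called KO throughout, is thus not at 0 for the deleted gene outside the members.

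The label was checked against the markers PCSK1, SLC30A8, ERO1B and NKX6-1, which the rule did not use. SLC30A8, the zinc transporter of insulin granules, stood at 734 CPM (709 to 760) in WT members and 717 (697 to 738) in KO members, against 61.1 and 55.1 in the other cells. ERO1B, the islet oxidase of disulfide bond formation, stood at 1431 and 1417 CPM against 194 and 102. After every cell was thinned to 5000 UMIs, SLC30A8 was detected in 74.3% of WT members and 73.7% of KO members, against 5.39% and 2.43% of cells without CHGA (unthinned 76.1% and 79.3% of members against 6.28% and 4.35%, median depths 5221 and 7339.5 UMIs in the cells without CHGA). PCSK1 at 121 and 118 CPM and NKX6-1 at 143 and 105 CPM were also above the other cells (50.3 and 29.1, 38.5 and 26.7 CPM). Both were higher still in the TPH1-high cells, the group with at least 3 TPH1 UMIs, INS under 2% and GCG and SST under 0.5%: PCSK1 at 251 and 189 CPM, NKX6-1 at 181 and 148 CPM. SLC30A8 and ERO1B were thus higher in members than in TPH1-high cells, and PCSK1 and NKX6-1 were not. This check did not cover cells with INS past 2% and another hormone, or cells high in GCG alone. NKX6-1 was almost level between the members and cells with INS past 2% and another hormone, as given below.

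**Figure D2:**
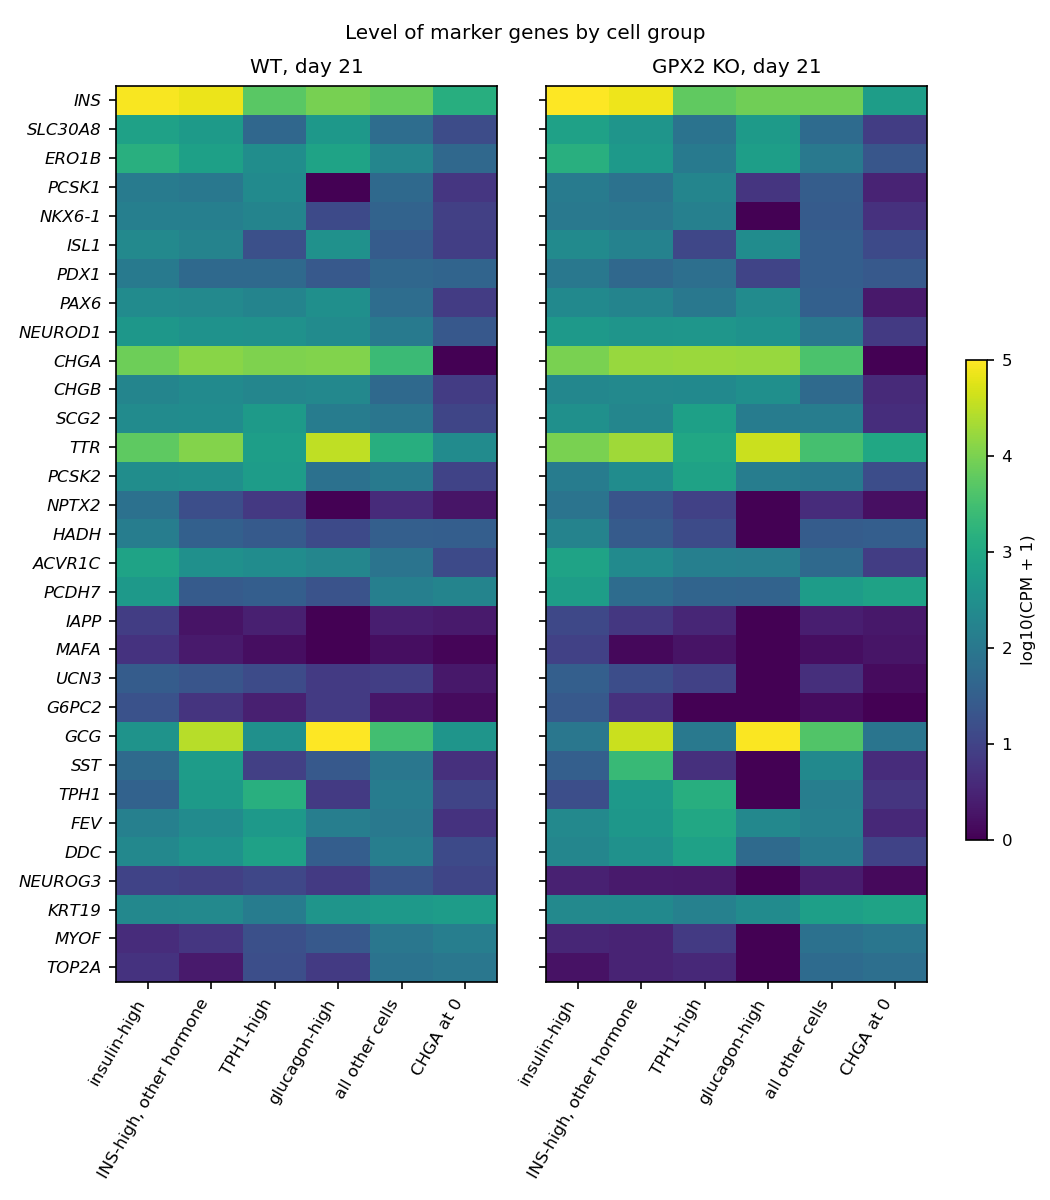
Heat map of log10(CPM + 1) for marker genes (rows) in 6 cell groups (columns), WT left and GPX2 KO right, colour from 0 (dark) to 5 (yellow). SLC30A8, ERO1B, ISL1 and NPTX2 are brighter in insulin-high than in TPH1-high cells in both libraries, FEV and DDC are dimmer, and IAPP, MAFA and G6PC2 are dark in every group.

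Against all other cells of the same library, 362 of 4425 genes (8.18%) were at least 2-fold higher in members in both libraries and 423 (9.56%) at least 2-fold lower, with at least 50 CPM on either side. The median log2 ratio over the 4425 genes was -0.12 in each library. Members against the rest is a description, since the rule set the members by INS. The other cells include those with INS past 2% and another hormone.

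The 12 genes with the largest ratios in both libraries include SLC30A8 and ISL1. NPTX2, a secreted pentraxin of synapses, stood at 71.2 CPM in WT and 82.6 in KO members against 3.06 and 3.33 CPM in the other cells, 23.2 times (18.5 to 29.4) and 24.8 times (20.5 to 30.2). The long noncoding RNA LINC02653 followed at 19.9 and 34.0 times, then AC090679.2 (16.2 and 13.7), AC080132.1 (12.9 and 12.6) and SLC30A8 (12.02 and 13.01). CALB2, the calcium buffer calretinin, was 12.5 and 11.8 times higher. ACVR1C, the activin receptor ALK7, was 9.68 and 16.3 times higher, and NEFM, a neurofilament subunit, 10.0 and 9.55 times. CASR, the calcium-sensing receptor (10.2 and 8.82 times), the cadherin CDH8 (9.28 and 8.42), the islet factor ISL1 (8.01 and 8.13) and EBF1, a helix-loop-helix factor (7.94 and 12.3), complete the 12. LINC02653 and NPTX2 were at 0 UMIs in the glucagon-high cells of both libraries. At their 164941 and 208588 UMIs, the floor of 3 counts is 18.2 and 14.4 CPM.

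The 12 genes with the lowest ratios include CENPF and TOP2A of dividing cells. MYOF, a membrane repair ferlin, stood at 3.38 CPM in WT and 2.42 in KO members against 95.7 and 70.9 in the other cells, and FRAS1, a basement membrane protein, at 10.4 and 7.11 CPM against 284 and 295. EFEMP1, UNC13C, LYPD6B, PTPN14, SH3RF2, HSPG2 (perlecan), AHNAK and ANXA3 lay between 0.0224 and 0.0560 of the other cells. CENPF and TOP2A, which act in mitosis and DNA untangling, were at 0.0548 and 0.0562 of the other cells in WT and 0.0122 and 0.0137 in KO. These low ratios depended on the filter on cells: with at least 1000 genes, under 20% mitochondrial UMIs and no upper limit they were 0.0849 and 0.0925 in WT and 0.155 and 0.158 in KO, still past 2-fold but with KO above WT. MKI67, a marker of dividing cells, had a UMI in 2 of 574 WT and 2 of 633 KO members.

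TPH1-high cells (263 in WT, 307 in KO) and glucagon-high cells (25 and 23, with GCG at 2% or more, INS under 2% and SST under 0.5%) were the other endocrine groups with INS under 2% that were compared with the members. Against both groups in both libraries, 22 of 3685 genes (0.597%) were at least 2-fold higher in members. The 10 highest were LINC02653, PCDH7, NPTX2, CDH8, HADH, PLXNA2, AC080132.1, AC090679.2, LRFN2 and ACVR1C. PCDH7, a protocadherin, stood at 511 CPM in WT and 600 in KO members, and at 30.0 and 40.0 CPM in TPH1-high cells and 18.2 and 38.4 in glucagon-high cells. Over all other cells it was 3.52 times higher in WT and 1.03 times in KO, where the other cells held 581 CPM. HADH, a mitochondrial fatty acid oxidation enzyme whose loss causes hyperinsulinism, stood at 129 and 171 CPM against 24.9 and 12.9 in TPH1-high cells. PLXNA2, a semaphorin receptor, was 4.99 and 4.65 times higher than in TPH1-high cells. ISL1 set the members apart from TPH1-high cells (221 and 247 against 15.3 and 10.5 CPM) but not from glucagon-high cells (333 and 268 CPM).

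Against TPH1-high cells alone, 98 of 4432 genes (2.21%) were at least 2-fold higher and 160 (3.61%) lower. Genes named for their role in enterochromaffin-like cells, after their values were seen, were lower in members: FEV, a serotonergic factor, at 151 and 226 CPM against 489 and 990, DDC (aromatic amino acid decarboxylase) at 218 and 196 against 736 and 719, and LMX1A at 122 and 121 against 451 and 776. FEV was nevertheless detected in 42.9% of WT and 50.97% of KO members at 5000 UMIs, against 1.67% and 1.47% of cells without CHGA (unthinned 52.6% and 69.4% of members against 2.37% and 1.92%). Of the 11 enterochromaffin-like genes, 4 could be compared with the other cells and 0 were past 2-fold in both libraries (median log2 ratios 0.67 and 0.69). Of all genes 8.18% were higher and 9.56% lower.

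Against the cells with INS past 2% and another hormone, the members differed in few genes, 26 of 3909 higher (0.665%) and 19 lower (0.486%). PCDH7 was 19.4 times higher in WT and 10.3 times in KO, HADH 3.98 and 6.61 times, and NPTX2 4.71 and 4.46 times. TTR, the hormone carrier transthyretin that α cells express strongly, stood at 5703 and 9846 CPM in members against 11927 and 19238 CPM in these cells. NKX6-1 was almost level in them (143 against 144 CPM in WT, 105 against 94.7 in KO).

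The β and endocrine factors were higher in members than in all other cells as a group, but not than in TPH1-high cells. The list sum was 4475 CPM in WT and 4244 in KO members, against 4623 and 5475 in TPH1-high cells. Of 30 listed factors, 22 could be compared with the other cells. Of these, 16 were at least 2-fold higher in both libraries and 0 lower, beside 8.18% and 9.56% of all genes. The list medians were 1.35 and 1.61 on the log2 scale. ISL1 had the largest ratio in WT, at the levels given above. NEUROD1 stood at 442 and 476 CPM, PAX6 at 256 and 234, NKX2-2 at 173 and 129, and PDX1 at 110 and 97.9, 2.42 and 3.21 times the other cells. RFX3, a ciliary and islet factor, had the highest level in WT (501 CPM) and the smallest ratio there (0.983, and 1.63 in KO), and ESRRG, a nuclear receptor, the smallest in KO (0.896, and 1.84 in WT). MAFA, the Maf factor of mature β cells, reached 4.51 CPM in WT and 8.17 in KO members.

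Granule and processing genes were mostly higher in members. Of 28 listed, 23 could be compared with the other cells. In both libraries 18 were at least 2-fold higher and 0 lower, beside 8.18% and 9.56% of all genes. The list medians were 1.63 and 1.83. CHGA was the most abundant of the list at 8000 CPM in WT and 10071 in KO members, and was higher in TPH1-high cells at 10978 and 17900 CPM. SCG5, the chaperone of PCSK2, stood at 932 CPM in both libraries (6.65 and 6.94 times the other cells), SCGN (secretagogin, a calcium sensor) at 801 and 1008, and the peptidase CPE at 662 and 835. PAM, the peptide amidating enzyme, had the smallest ratio at 0.384 and 0.759.

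Of the 25 genes of glucose sensing and excitability, 11 could be compared with the other cells. In both libraries 10 were higher past 2-fold and 0 lower, beside 8.18% and 9.56% of all genes. The list medians were 1.87 and 1.89. TPH1-high cells held more of this list, 4113 CPM in WT and 4730 in KO against 3784 and 3620 in members. ABCC8, the sulfonylurea receptor subunit of the potassium channel, stood at 406 and 449 CPM, 7.12 and 6.91 times the other cells. CACNA1A, a calcium channel subunit, had the highest level of the list at 1065 and 882 CPM, and KCNK16, a potassium channel, the largest ratio in KO (7.66, and 4.19 in WT). KCNJ11, the pore of the ABCC8 channel, reached 10.8 and 14.4 CPM. The fatty acid receptor FFAR1 stood at 47.3 and 61.7 CPM, and SLC2A2, the glucose transporter GLUT2, at 0.902 and 2.27 CPM. PCLO (piccolo) had the smallest ratio among those compared, 1.86 and 1.83.

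Genes of mature β cells were unevenly represented. Of 17 listed, 6 had enough UMIs to compare (NEFM, FXYD2, ABCC8, TSPAN1, CHGB and PCSK1). All 6 were at least 2-fold higher than in the other cells in both libraries, beside 8.18% of all genes. The defining ones were low in absolute level: UCN3 (urocortin 3) at 27.5 and 31.2 CPM, G6PC2 at 17.6 and 23.9, IAPP (islet amyloid polypeptide) at 6.99 and 11.2, and SIX2 and SIX3 at or under 1.36 CPM. IAPP had a UMI in 2.26% of WT and 3.63% of KO members, against 0.721% and 0.832% of cells without CHGA (1.93% and 2.10% against 0.743% and 0.442% at 5000 UMIs). Of the 13 genes normally kept low in mature β cells, only 3 could be compared with the other cells, and all 3 were past 2-fold in both libraries. PAX4 and GAST were higher in members and REST, the repressor of neuronal genes, was lower (10.8 and 9.38 CPM against 92.1 and 82.0). Of all genes 8.18% were higher and 9.56% lower. LDHA (lactate dehydrogenase A) stood at 14.0 and 14.1 CPM, below the other cells at 23.9 and 28.5.

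Markers of other cell types set the limits of purity. The counts in this paragraph stand beside 8.18% of all genes higher in members past 2-fold in both libraries and 9.56% lower. All 5 ductal and epithelial genes that could be compared were at least 2-fold lower in members in both libraries, KRT19 at 216 and 227 CPM against 475 and 667, with KRT18 at 0.320 and 0.272 of the other cells. Of 7 pancreatic progenitor markers compared, HES1, ONECUT1 and GATA6 were lower past 2-fold in both libraries, NKX6-1 and PDX1 were higher, and RBPJ and GATA4 were not past it in both. Of the 11 proliferation markers, CENPF and TOP2A could be compared. Of the 19 hepatic genes, 7 could be compared, 3 were higher in both libraries (TTR, APOA2 and APOC3), and the list sum was 6929 CPM in WT and 11664 CPM in KO members against 2039 and 6228 in the other cells. TTR made up most of it. The fibrinogen genes, hepatic by definition, gave another picture: FGB stood at 22.7 CPM in KO members, 585 in KO other cells and 337 CPM in KO free RNA, and at 0.451 CPM in WT members. Mesenchyme markers summed to 55.4 and 70.6 CPM in members against 90.1 and 338 in the other cells, 11 of the 12 being under 5 CPM in both libraries.

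**Figure D3:**
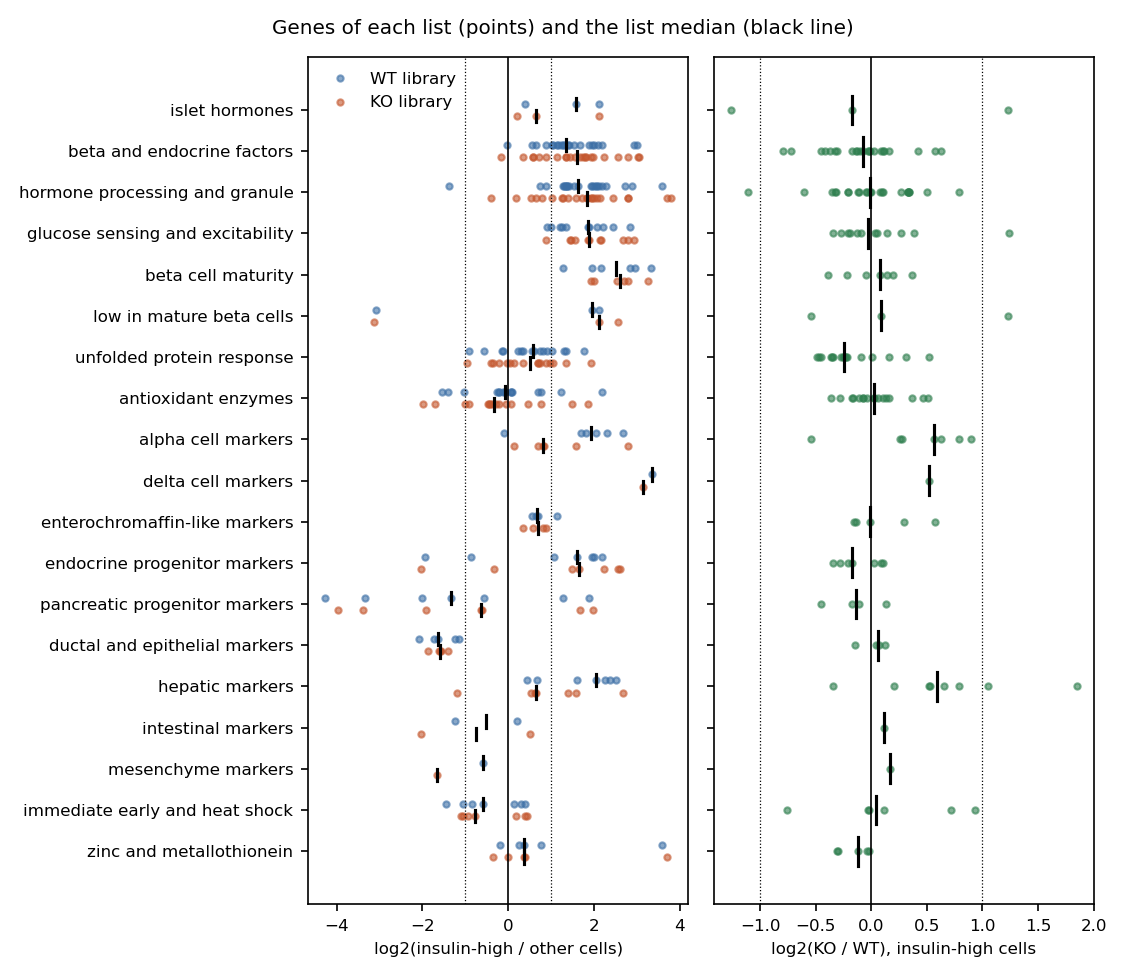
Each point is 1 gene of a list (rows), on the left the log2 ratio of insulin-high over other cells in WT (blue) and KO (orange-red), on the right the log2 ratio of KO over WT in insulin-high cells, with list medians as black lines and 2-fold as dotted lines. Granule, excitability and β cell lists lie to the right of 0 on the left side, with medians of 1.35 to 2.61, ductal genes lie to the left, and most points on the right side stay inside the dotted lines.

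Fewer genes were past 2-fold between the genotypes than between members and other cells. Of 4281 genes with at least 50 CPM in either library, 24 (0.561%) were at least 2-fold higher in KO and 26 (0.607%) at least 2-fold lower. The median log2 ratio over these genes was -0.10. INS itself, which the rule used, stood at 89227 CPM in WT and 117721 in KO members.

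Among the 12 highest ratios, several were as large in the other cells of the KO library. The other cells are pools of different make-up: cells without CHGA were 15.8% of WT and 27.8% of KO cells. The paper reports pancreatic progenitors mainly in WT and multilineage cells almost only in KO at this stage. Ratios of KO over WT in the other cells therefore cannot tell a change within cells from a change in cell types. EEF1A2, the translation elongation factor of neurons and muscle, stood at 13.3 CPM in WT and 75.3 in KO members, a ratio of 5.67 (4.32 to 7.55), and 4.74 in the other cells. The noncoding AC108690.1 had a ratio of 4.64 in members and 4.45 in other cells. VTN (vitronectin, a liver-secreted adhesion protein) had 48.9 and 176 CPM, a ratio of 3.60 against 4.65 in the other cells, with 151 CPM in KO free RNA. S100A10, the annexin A2 partner, had 64.9 and 217 CPM (ratio 3.34, 4.57 in other cells), with 1448 CPM in KO free RNA. The 5% of members highest in S100A10 held 31.9% of its UMIs in WT and 60.4% in KO, where the median member stood at 80.9 CPM. The part of free RNA in these values was not tested.

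Of the 3 islet and gut hormone genes of the list that could be compared, GAST was higher in KO past 2-fold and PYY lower. Of all genes 0.561% were higher and 0.607% lower. The third of the list, GHRL (ghrelin), had 60.2 and 53.4 CPM, a ratio of 0.887 (0.755 to 1.04). SCT, CCK and GAL were named by their ratios and are outside that list. SCT (secretin) stood at 117 CPM in WT and 390 in KO members, a ratio of 3.32 (3.02 to 3.66), and was detected in 21.3% of WT and 46.6% of KO members at 5000 UMIs, against 1.30% and 5.89% of cells without CHGA (unthinned 24.6% and 58.1% of members). CCK (cholecystokinin) stood at 35.6 and 160 CPM (ratio 4.49) and GAST (gastrin) at 263 and 616 CPM (ratio 2.35, 2.20 to 2.51). Both sat in few cells: 1 WT cell held 23.4% of the CCK UMIs and 1 KO cell 14.5%, and without these cells the ratio was 5.01. For GAST the single cells held 14.0% and 16.3%, and the ratio without them was 2.28. GAL (galanin) went the other way, 130 CPM in WT and 30.4 in KO members, a ratio of 0.235, and 0.185 without the top cells, 1 of which held 31.8% of the KO UMIs. PYY stood at 194 and 80.9 CPM (ratio 0.417, 0.374 to 0.465). It also sat in few cells: 1 WT cell held 219 of its 861 UMIs and 1 KO cell 59 of 535. The share of members with a PYY UMI went the other way, 11.5% in WT and 17.4% in KO without thinning. Its ratio without the top cells is not given here.

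IFI6, an interferon-induced gene, was detected in most members. It stood at 353 CPM in WT and 908 in KO members, a ratio of 2.57 (2.43 to 2.72), 1.82 in the other cells, and was detected in 75.4% and 93.7% of members at 5000 UMIs (49.3% and 51.1% of cells without CHGA). DGKB, a diacylglycerol kinase (ratio 2.44), NPSR1-AS1 (2.37) and KCNMB2, a potassium channel subunit (57.9 and 137 CPM, ratio 2.36), were also higher in KO members.

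Among the 12 lowest ratios, SHISA9, a regulator of glutamate receptors, stood at 61.1 CPM in WT and 10.6 in KO members (ratio 0.173, 0.131 to 0.226), and 0.690 in the other cells. IGF2, the imprinted growth factor next to INS, stood at 69.9 and 14.98 CPM (ratio 0.214), and at 0.313 in the other cells. MECOM, a zinc finger factor (155 and 49.6 CPM, ratio 0.320, but 0.645 with at least 1000 genes per cell and no upper limit), PLCL1, a phospholipase C-like protein (595 and 200 CPM, 0.336), CALB2 (765 and 303 CPM, 0.396) and ADAMTS9, a matrix protease (0.291), had ratios of 0.423, 0.279, 0.420 and 0.342 in the other cells. AC008415.1 (0.352), AC069277.1 (0.404) and the histone gene HIST1H4C (0.416, but 0.774 under that filter) were likewise under 1 in both. ERBB4, the neuregulin receptor, and PCDH9, a protocadherin, were lower in KO members (218 and 57.5 CPM, 144 and 42.8 CPM) and higher in the KO other cells, with ratios of 1.52 and 3.15 there.

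**Figure D4:**
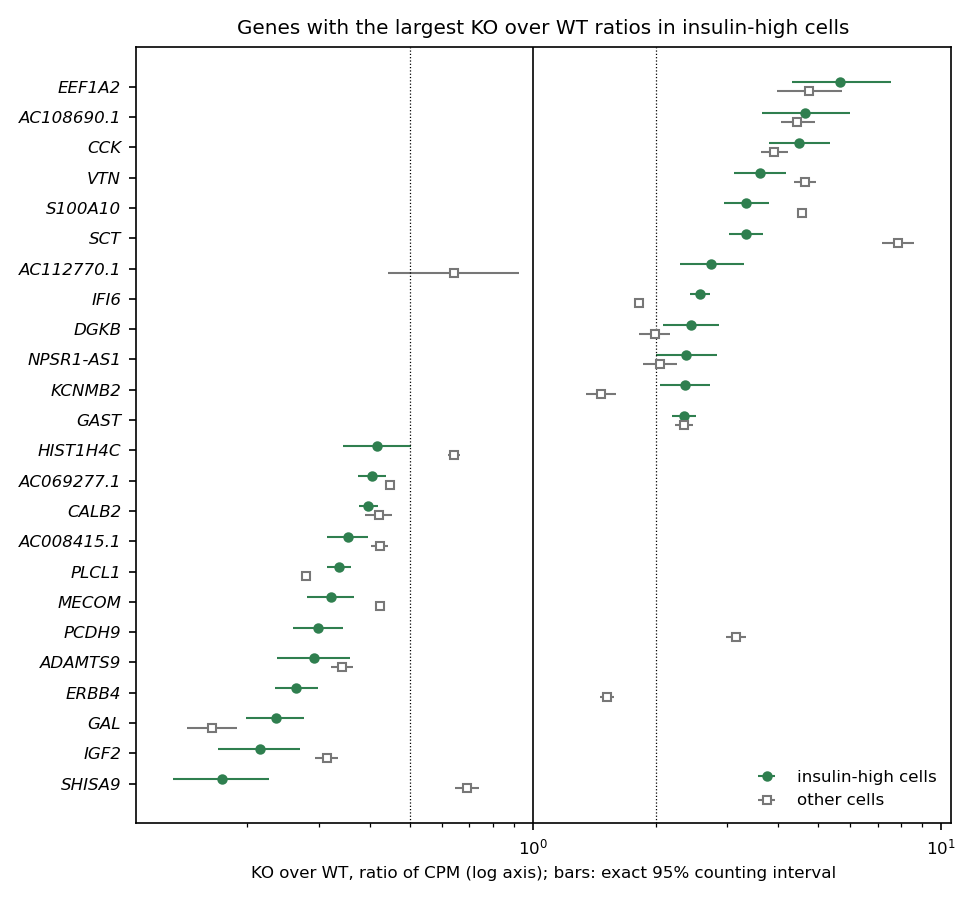
Ratio of CPM in KO over WT (x axis, log scale) for the 12 highest and 12 lowest genes (rows), in insulin-high cells (filled green) and in the other cells (open grey squares), with bars for the exact 95% counting interval and dotted lines at 0.5 and 2. EEF1A2 lies at 5.67 and 4.74, SHISA9 at 0.173 and 0.690, and AC112770.1, ERBB4 and PCDH9 lie on opposite sides of 1 in the 2 kinds of cells.

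Of 23 listed β and endocrine factors with at least 50 CPM in either library, 0 were past 2-fold between genotypes, where 0.561% of all genes were higher and 0.607% lower past that limit, so that the count says little about the factors. Their ratios ran from 0.579 (ESRRG) to 1.54 (IRX2), with a list median of -0.07 on the log2 scale, near the -0.10 of all genes. NKX6-1 had a ratio of 0.731 (0.656 to 0.816), and was detected in 39.8% of WT (35.6 to 44.2%) and 33.7% of KO members (30.0 to 37.6%) at 5000 UMIs (unthinned 51.6% and 52.0%). PDX1 had a ratio of 0.888 (0.788 to 1.00) and NEUROD1 1.08. MAFA had a ratio of 1.81 (1.07 to 3.20) on 4.51 and 8.17 CPM. NEUROG3, the factor that starts endocrine differentiation, stood at 9.24 CPM in WT and 1.82 in KO members, and at 18.7 and 1.38 in the other cells.

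Between genotypes 0.561% of all genes were higher and 0.607% lower past 2-fold, and the list counts below stand beside these shares. Of 24 granule genes, 1 was past 2-fold: PCSK2, at 275 CPM in WT and 127 in KO members (ratio 0.462, 0.423 to 0.505), with 1.04 in the other cells. TTR had the highest ratio of that list at 1.73 (1.70 to 1.75), and 2.40 in the other cells. Of 12 excitability genes, only KCNMB2 passed, and ABCC8 (1.11) and GIPR (0.787) did not. All 7 maturity genes compared lay between 0.762 (TSPAN1) and 1.29 (FXYD2). Of 8 hepatic genes compared, VTN and APOA1 passed. APOA1 stood at 205 and 424 CPM (ratio 2.07), 7.57 in the other cells, with 717 CPM in KO free RNA. A single KO member held 332 of the 2804 APOA1 UMIs and a single WT member 35 of 910, so that this ratio rested in part on 1 cell. Of the 24 genes higher in KO members, 23 stayed past 2-fold without the cell richest in each.

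Genes of the unfolded protein response serve the folding of proinsulin. In members against other cells, 3 of 16 were past 2-fold (DNAJB9, XBP1 and P4HB, all higher), beside 8.18% of all genes higher and 9.56% lower, and the list medians were 0.59 and 0.52. Between genotypes 0 of 17 passed, where 0.561% of all genes were higher and 0.607% lower, and the list median was -0.25, below the -0.10 of all genes. HSPA5 (BiP, the main ER chaperone) stood at 569 and 489 CPM (ratio 0.860), HSP90B1 at 653 and 514 (0.786), PDIA4 had the lowest ratio (0.712) and ATF4 the highest (1.44). DDIT3 stood at 11.5 and 13.0 CPM.

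Antioxidant enzymes include the targeted gene. In members against other cells, GPX3 (4.56 and 3.61 times) and GCLM, a glutathione synthesis subunit (2.35 and 2.81 times), were higher, and PRDX1 (0.345 and 0.254) and PRDX6 (0.377 and 0.304) lower past 2-fold, of 16 compared. Of all genes 8.18% were higher and 9.56% lower, so that these counts say little about the list. CAT (catalase) was at 0 UMIs in WT members and 0.454 CPM in KO members, and HMOX1 at 0 and 0.303 CPM. Between genotypes 0 of 17 passed 2-fold, a count near the background of 0.561% higher and 0.607% lower, with a list median of 0.02. GPX3 had the highest ratio (50.7 and 72.2 CPM, 1.42, 1.21 to 1.67), TXNRD1 the lowest (96.2 and 75.04 CPM, 0.780), and PRDX2, the most abundant, had 403 and 421 CPM. The plot of lists shows these points inside the 2-fold lines.

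A few genes varied widely among the insulin-high cells. After thinning to 5000 UMIs per cell, which left out 57 WT and 13 KO members, the Fano factor (variance over mean of the UMIs, near 1 for counting noise alone) had a median of 1.18 in WT and 1.22 in KO over 1723 genes with a mean of at least 0.5 UMIs, and a 95th percentile of 3.03 and 3.25. The 12 highest by the lower library were TTR (173 and 127), APOA2 (65.3 and 51.2), GAST (41.8 and 108), CHGA (27.1 and 34.8), CCSER1, ANKS1B, SCN7A, AC109466.1, MALAT1, APOA1, FTL and ALDH1A1. CHGA was at 5676 CPM in the median WT member and 8288 in KO, with interquartile ranges of 3428 to 10727 and 4621 to 15213.

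Some of these genes sat in a small subset. The 5% of members highest in GAST held 93.1% of its UMIs in WT and 90.2% in KO, for APOA2 91.8% and 83.0%, and for PYY 94.9% and 79.1%. At least 5 GAST UMIs were found in 29 WT and 58 KO members, 13 and 11 of which also held at least 5 PYY UMIs. ALDH1A1, a retinaldehyde dehydrogenase, was found more widely, in 68.3% of WT and 91.1% of KO members at 5000 UMIs, against 7.43% and 24.5% of cells without CHGA (unthinned 73.2% and 96.1% of members).

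Splitting the members of each library into tertiles by INS share ranked the genes that go with INS. The tertiles had median INS shares of 3.91, 7.64 and 13.5% in WT and 5.30, 10.7 and 17.2% in KO, and the top tertile was deeper (8209 against 6869 UMIs in WT, 11331 against 9223 in KO). With INS taken out of the total, 25 of 4426 genes (0.565%) were at least 2-fold higher in the top than in the bottom tertile in both libraries, and 50 (1.13%) lower. The genes below were chosen after their values were seen.

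NPTX2 led the genes that were higher with INS, at 27.9 CPM in the bottom and 133 in the top tertile of WT and 28.4 and 145 in KO, ratios of 4.75 and 5.09. SELENOM, a selenoprotein of the ER, followed at 9.70 and 3.52 times, then NEFM (3.00 and 3.40), EBF1 (7.13 and 2.92), NPHS1 or nephrin (3.03 and 2.87), PCP4, a calmodulin regulator (5.63 and 2.78), ASPH (2.49 and 2.57) and PCDH7 (3.33 and 2.47). On the other side stood CNTNAP5 (0.153 and 0.0798), STAC (0.189 and 0.126), CAMK1D, NEGR1, FEV, CCK and MECOM. FEV went from 264 CPM in the bottom to 79.4 in the top tertile in WT and from 474 to 127 in KO. MECOM went from 294 to 93.2 CPM in WT and from 96.7 to 26.6 in KO, so that its KO level was lower in both tertiles.

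**Figure D5:**
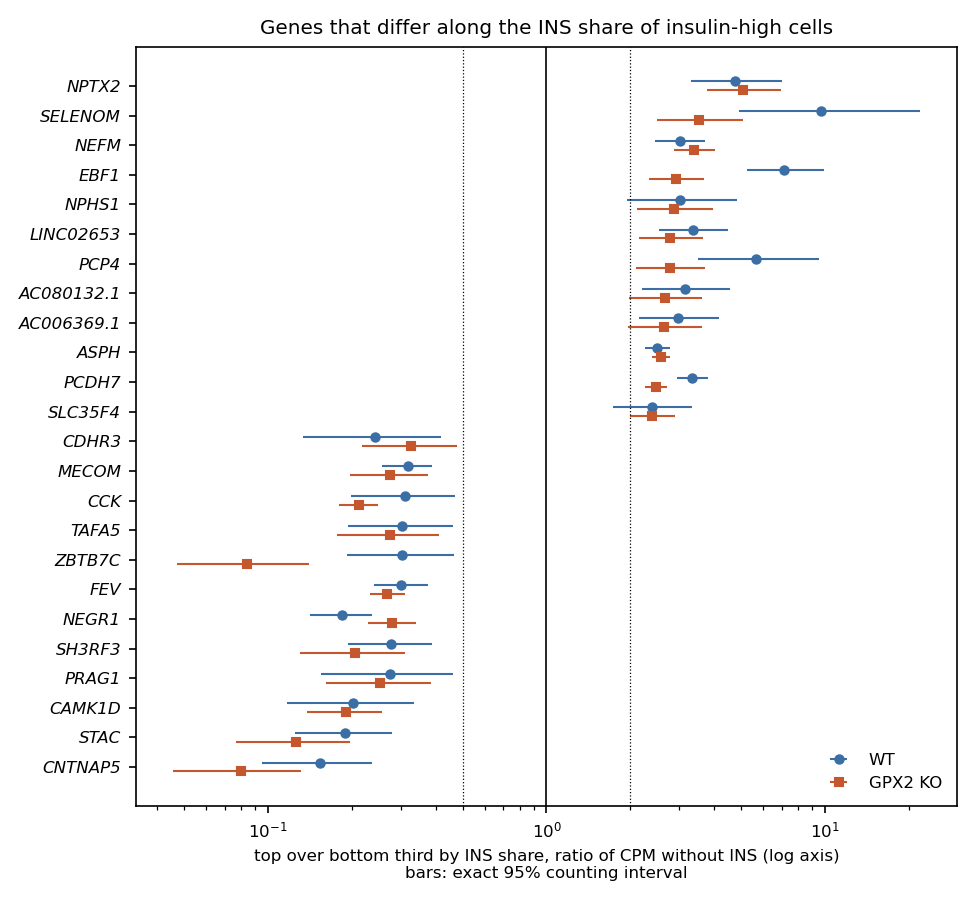
Ratio of CPM without INS between the members with the highest and the lowest tertile of INS shares (x axis, log scale), for 12 genes in each direction (rows), WT as blue circles and KO as orange-red squares, with exact 95% counting intervals and dotted lines at 0.5 and 2. NPTX2 lies at 4.75 and 5.09, FEV at 0.301 and 0.268, and each gene lies on the same side of 1 in both libraries.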

How the data were processed

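Single-cell RNA was measured with 10x Chromium in 1 WT and 1 GPX2 KO culture of day 21. The authors aligned and counted reads with Cell Ranger (7.1.0 in the file headers, GRCh38 in the labels), and the deposited matrices hold UMI counts per gene and barcode, not normalised, with 8911 barcodes for WT and 1285152 for KO. Samples were grouped by their labels. Files of other stages and assays were not used here. Kept cells had 6128 and 5611 barcodes with median depths of 5638 and 8061 UMIs.

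Counts were summed per library and cell group with Python 3.11.15, numpy 2.4.6 and scipy 1.17.1, and scaled to CPM of all UMIs. Intervals are exact at 95% (Poisson for levels, conditional binomial for ratios, Clopper-Pearson for shares) and cover counting error only. A gene was compared at 50 CPM or more and counted as past the fold at 2 or 0.5. The steps were tested on simulated data. Doublets were called with Scrublet in scanpy 1.11.5. The floor of a count of 0 is 3 counts.

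The genes named are the 12 highest and 12 lowest ratios of each main comparison (for KO over WT only those whose interval leaves out 1), the 10 highest against the like groups, the 12 highest Fano factors, and, from 21 gene lists, the members with the largest and smallest ratio and the highest level. Other list members are named for their role and were chosen after their values were seen. The genes of the rule and mitochondrial genes were left out, and some genes are not reported here. The members, rules and lists were chosen with earlier results of these data known. Somatostatin-high cells were too few (4 in WT, 1 in KO), so that the like groups gave 4 ratios in place of 6. Alternatives were the filter on cells, the INS and other hormone limits, doublets, scaling, the weight of cells, thinning and the minimum level. Chosen after seeing the data were other cells without those at 2% INS, and ratios without the cell richest in a gene.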

Additional observations from a re-analysis of the deposited data

Results flagged for a closer look

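3 genes had ratios of KO over WT on opposite sides of 1 in the insulin-high cells and in the other cells, with counting intervals that leave out 1 in both. The difference between the 2 ratios was not tested, since each comes from 1 library per genotype. The other cells also hold different cell types in the 2 libraries, as given above. ERBB4 had a ratio of 0.264 in insulin-high cells and 1.52 (1.46 to 1.58) in the other cells. PCDH9 had 0.298 and 3.15 (2.98 to 3.33). In the cells with INS past 2% and another hormone the ratios were 0.421 and 0.974, and in TPH1-high cells 0.455 and 0.546. The noncoding AC112770.1 had 2.74 in insulin-high cells and 0.641 (0.442 to 0.926) in the other cells, and 1 WT member held 24.3% of its UMIs.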

How the results depend on the processing

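No paired analysis was possible because day 21 holds 1 library per genotype. The share of insulin-high cells was 9.37% in WT and 11.3% in KO. It was 8.46% and 12.2% with at least 1000 genes, under 20% mitochondrial UMIs and no upper limit, 10.8% and 12.3% at 1% INS, 6.77% and 9.50% at 5% INS, and 6.77% and 9.70% with GCG and SST under 0.1% and TPH1 at 0. KO was above WT under each of these limits, with overlapping intervals at 1% INS. The gene counts followed the minimum level. Against the other cells, 556 genes were higher and 789 lower at 20 CPM, and 117 and 123 at 200 CPM. For KO over WT, 61 were higher and 66 lower at 20 CPM, and 8 and 7 at 200 CPM. Without INS, IAPP, mitochondrial and ribosomal protein genes in the total, 41 genes were higher in KO in place of 24, among them all 24, and the median log2 ratio was -0.03. Of 216 recomputed KO over WT ratios of the named genes, 0 changed direction and 2 were no longer past 2-fold, MECOM (0.645) and HIST1H4C (0.774), both under the wider filter on cells. CCK reached 7.78 at 1% INS, 7.51 under the stricter hormone limits and 6.78 in thinned cells, against 4.49. Of 432 recomputed ratios against the other cells, 0 changed direction and 0 left the 2-fold range, but 117 moved beyond the counting interval and 61 by over 1.5 times. Under the wider filter on cells FRAS1 in KO went from 0.0241 to 0.124, HSPG2 from 0.0554 to 0.231, CENPF from 0.0122 to 0.155 and TOP2A from 0.0137 to 0.158. The cause was not tested. Depth limits the precision of genes with few UMIs, such as GPX2.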

Other observations

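Insulin-high cells could also be ranked by TTR, the gene with the highest Fano factor, a split chosen after its values were seen. Its median level by tertiles was 644, 1985 and 5581 CPM in WT and 1845, 4696 and 14177 CPM in KO, reaching 176225 and 148424 CPM in single cells. The median INS share was higher with it, from 4.84% in the bottom to 10.4% in the top tertile in WT and from 6.77% to 13.0% in KO. Of 4147 genes, 54 (1.30%) were at least 2-fold higher in the top tertile in both libraries and 63 (1.52%) lower. APOA2 had ratios of 70.7 in WT and 43.7 in KO, PYY 37.6 and 17.5, GAST 12.01 and 23.6, and the glutamate receptor subunit GRIN3A 7.19 and 8.59. IRX2, a homeobox factor, had 2.75 and 2.70. GCG had 1.17 and 1.49, with cells above 0.5% left out by the rule. Lower in the top tertile were MECOM (0.164 and 0.141), DDC (0.214 and 0.282), FEV (0.336 and 0.311), PCSK2 (0.370 and 0.514) and NKX6-1 (0.461 and 0.354).

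Some genes at under 50 CPM differed between the libraries in members and in the other cells. LY6E stood at 6.76 CPM in WT and 0.303 in KO members, and at 7.32 and 0.150 CPM in the other cells. The zinc finger gene ZNF667 stood at 0.451 and 11.2 CPM in members and at 0.797 and 8.88 in the other cells. The metallothionein gene MT2A stood at 11.3 CPM in WT and 8.17 in KO members, where 1 KO cell held 72.2% of its UMIs, against 159 in WT and 22.9 in KO other cells. Immediate early genes compared between genotypes were within 2-fold in members, from JUN (0.591) to FOS (1.91).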
